A study of Mus musculus with 18 samples.

Results

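The genes described here are the axon guidance ligands and receptors of 4 families, read in sorted cells from mouse embryonic stem cells on the way to midbrain dopamine neurons. They were chosen by name alone. A row of the deposited gene table was taken when its symbol began with Sema, Plxn, Epha, Ephb, Efna, Efnb, Slit, Unc5, Robo or Ntn, or was Dcc, Nrp1 or Nrp2, with the Slitrk genes left out. This gave 72 of 31441 rows. Of these, 48 were detected on enough arrays to be tested, 23 were too dim, and 1, Slit2, could not be tied to its probes and is given separately. No row was named Nrp1. The rule also took 3 genes that only share a name with the families, Unc50, Unc5cl and Vasn (deposited as SLITL2).

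All cells came from J1 stem cells with a bacterial artificial chromosome that puts a fluorescent protein under the control of 1 gene, and each line was sorted by fluorescence at days 14 to 15 of differentiation. The groups were Hes5::GFP positive and negative cells, Nurr1::GFP positive and negative cells, and Pitx3::YFP positive and negative cells, with 3 arrays in each of the 6 groups. Hes5 is a repressor that Notch induces in neural progenitors. Nurr1 (gene Nr4a2) is a nuclear receptor of young and mature midbrain dopamine neurons, and Pitx3 is a homeobox factor of more mature ones. Each reporter shows where the transgene is active, and the negative cells are those of the same line sorted as lacking its fluorescence. The source name of Hes5 negative replicate 2 calls it positive while its title and genotype call it negative. It was kept as negative, and the Hes5 sort is also given without its pair.

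Guidance molecules steer the growing tip of an axon by attracting or repelling it. Netrins act through Dcc and the Unc5 receptors, Slits through Robo receptors, and semaphorins through plexins, with neuropilins as partners for the secreted kinds. Ephrins sit on the cell surface and bind Eph receptor tyrosine kinases on neighbouring cells. In the midbrain, Slits and Robos, netrin and Dcc, and semaphorins are known to shape where dopamine neurons settle and where their axons run.

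Values are log2 intensities after background correction and quantile normalization, called normalized log2 intensity below, and a sort effect is the mean of positive cells minus the mean of negative cells on that scale. A probe counts as detected on an array when its detection p-value is under 0.01. The sorts were tested with limma over 13496 rows, and a gene passed at a Benjamini-Hochberg adjusted p under 0.05. Fractions with the same replicate number varied together, so each sort is given in 2 fits, one without pairs and one with the replicate number as a block, called the paired fit. P-values measure only the spread between these arrays, since the labels do not say whether the replicates are separate differentiations. A lower intensity in these bulk samples can be fewer cells that make the RNA or less RNA in each, and the arrays cannot tell these apart.

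In the fit without pairs no guidance gene passed in any of the 3 sorts, where 0.0148% of all rows passed in the Hes5 sort, 0.0222% in the Nurr1 sort and 0.393% in the Pitx3 sort. An unadjusted p under 0.05 was reached by 8 of the 48 in the Hes5 sort (6.65% of all rows), 7 in the Nurr1 sort (8.42% of all rows) and 9 in the Pitx3 sort (14.7% of all rows). In the paired fit 8 members passed in the Pitx3 sort (16.7%), against 15.1% of all rows. That share is near the background and says nothing particular about guidance genes. In the same fit 0 passed in the Nurr1 sort, where 0.741% of all rows did and where 17 members (35.4%) and 24.3% of all rows reached an unadjusted p under 0.05. In the Hes5 sort 2 passed (4.17%), against 1.33% of all rows, and both rose, as 0.674% of all rows did. The median sort effect of the 48 was 0.13, 0.06 and 0.03 in the Hes5, Nurr1 and Pitx3 sorts, and that of all rows tested was 0.04, -0.02 and 0.01. Since the filter keeps genes that are high in only 1 group, these counts describe the rows tested and not all 72.

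Without Hes5 pair 2, the pair with the conflicting label, 9 of the 48 passed in the Hes5 sort in the paired fit, and all 9 rose. Of all rows 8.97% passed there, rises and falls together, and the share that rose is not given. The 9 members were Robo3, Sema6a and Ephb1, described below, together with Robo1 (1.0, paired adjusted p = 0.0469), Sema5b (1.08, 0.00679), Sema6c (0.92, 0.0400), Sema7a (1.24, 0.0329), Ephb2 (0.92, 0.0194) and Plxnb1 (0.58, 0.0391). Of these 9 only Robo3 and Sema6a passed in the Hes5 sort with all pairs, where Ephb1 had a paired adjusted p of 0.059 (limma). Of the other members named for that sort, Dcc was at 0.95, Epha3 at 1.05 and Robo2 at 0.97 without pair 2. Their paired adjusted p were 0.0903, 0.0535 and 0.292 (limma). Epha2, Unc5b and Ntn1 were lower in positive cells, at -1.60, -0.55 and -0.21, with paired adjusted p of 0.0890, 0.2345 and 0.5126. Epha5 and Plxnc1, named for other sorts, were at 0.85 and 0.78, with paired adjusted p of 0.148 and 0.162. Without Hes5 pair 1, or without Hes5 pair 3, none of the 48 passed in the Hes5 sort, where 0.0222% and 0.0296% of all rows did.

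**Figure D1:**
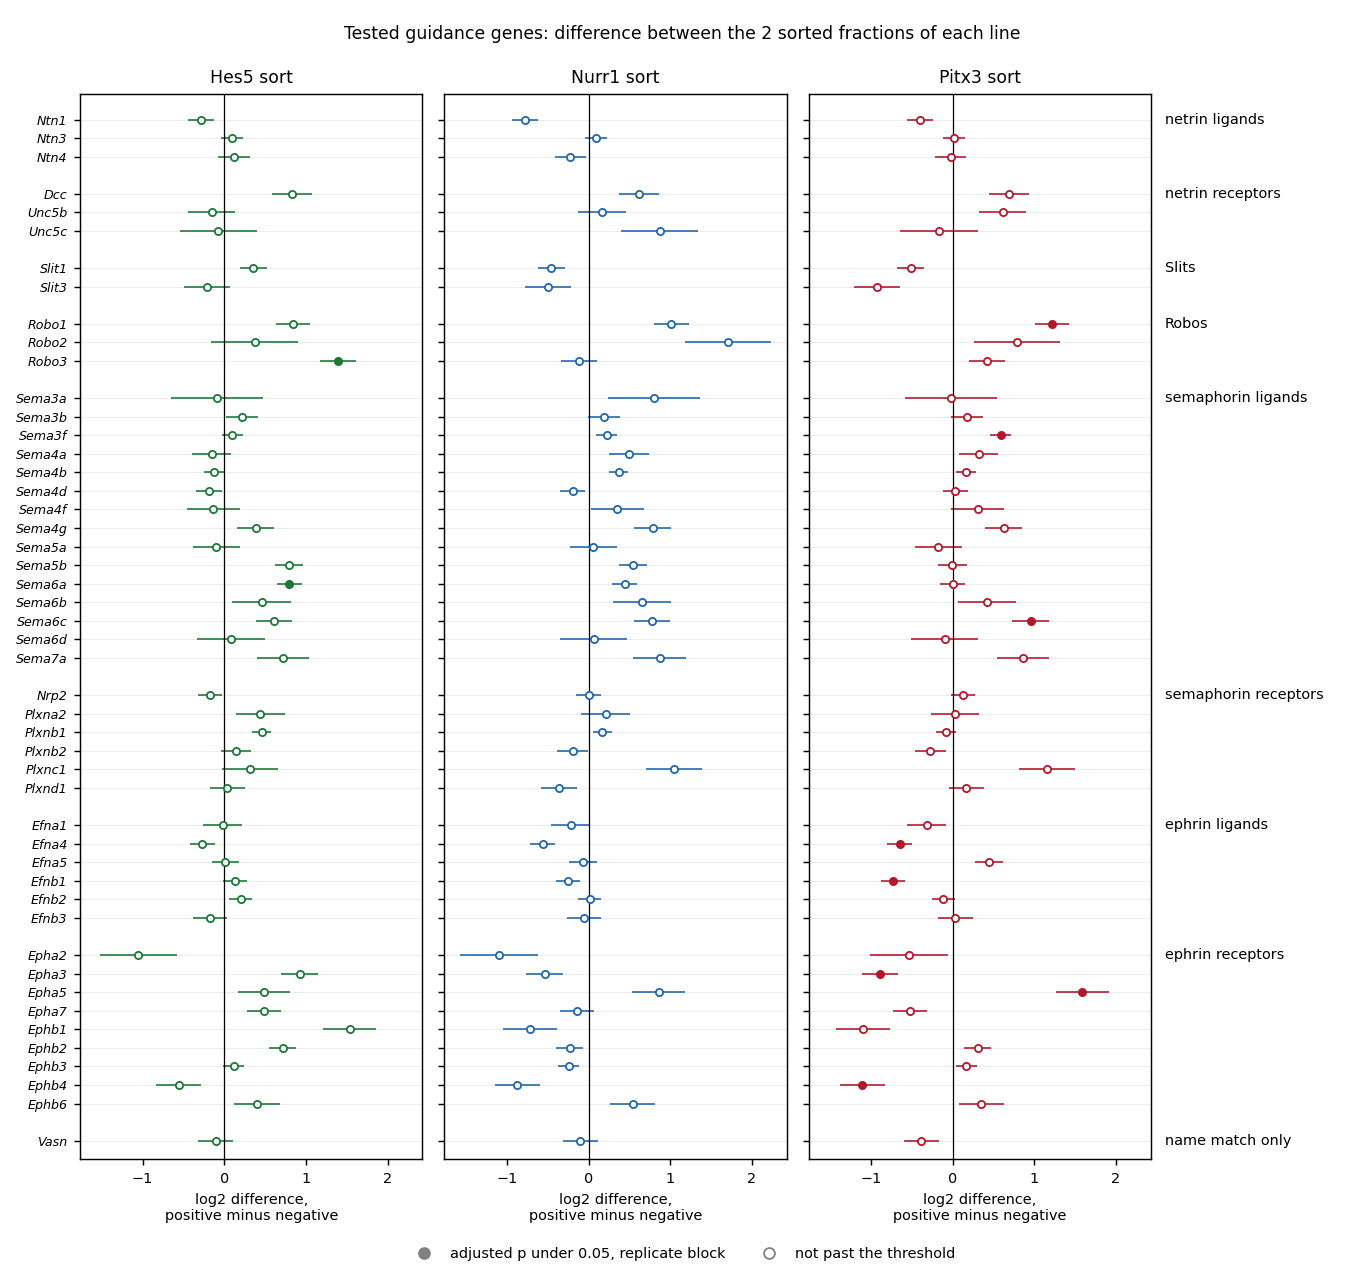
Sort effect of each of the 48 tested guidance genes (x axis, log2 difference of positive minus negative cells) in the Hes5, Nurr1 and Pitx3 lines, grouped by family and role. Points are means of 3 pairs, bars are standard errors of the paired fit, and filled points had an adjusted p under 0.05 there, which 2 genes did in the Hes5 sort, 0 in the Nurr1 sort and 8 in the Pitx3 sort.

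The arrays were alike in quality. Their median probe intensity lay between 40.6 and 60.2 units, 33.5% to 37.4% of probes were detected, and arrays of 1 group correlated at 0.876 to 0.974 across the rows tested. The reporter genes were read first. The sort effect was 2.04 for Hes5 in the Hes5 sort, 2.75 for Nr4a2 in the Nurr1 sort and 4.10 for Pitx3 in the Pitx3 sort, with paired adjusted p of 0.070, 0.036 and 0.00191 (limma). In the Pitx3 sort, 6 of 8 dopamine neuron markers rose in the paired fit, while 5 of 5 serotonin neuron, 7 of 7 tested progenitor, 4 of 4 tested GABA neuron and 5 of 6 cycling cell markers fell. Pitx3, whose reporter was sorted on, is counted among these 6 and in the means of the dopamine markers. The mean of the dopamine markers was 9.59 to 11.48 on Pitx3 positive arrays and 7.35 to 8.69 on negative ones. For the progenitor markers these ranges were 7.45 to 9.47 and 10.21 to 10.84, with Fabp7 detected on no Pitx3 positive array. For the serotonin markers they were 6.86 to 7.99 and 10.07 to 11.43, for the GABA markers 5.30 to 6.72 and 7.17 to 9.41 (Dlx2 detected on no Pitx3 positive array), and for the cycling markers 5.08 to 9.46 and 8.54 to 10.12 (Plk1 detected on no Pitx3 array of either fraction).

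Pitx3 positive replicate 1 was the lowest of its group for the dopamine markers and the highest for the cycling and pluripotent cell markers. Its mean was 9.59 for the dopamine markers, against 11.48 and 10.62 in replicates 2 and 3. It was 9.46 for the cycling markers, against 5.08 and 7.78, and 9.02 for the pluripotent cell markers, against 4.95 and 6.34. Pitx3 negative replicates 1 to 3 had the same order. They were at 7.35, 8.69 and 7.84 for the dopamine markers, 10.12, 8.54 and 9.17 for the cycling markers, and 8.49, 5.66 and 6.27 for the pluripotent cell markers. The Hes5 arrays differed by replicate number in both fractions, with replicate 1 the lowest for the dopamine markers. These were at 6.0, 9.19 and 7.38 in Hes5 positive replicates 1 to 3 and at 6.19, 8.83 and 7.70 in Hes5 negative ones. Pair 1 had the largest Hes5 difference of Robo3 (2.16), Ephb1 (2.33) and Epha3 (1.41), and without it these sort effects were 1.01, 1.14 and 0.68, with paired adjusted p of 0.0932, 0.231 and 0.282 (limma).

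In the Hes5 line the pluripotent markers were at 7.48, 6.70 and 6.65 in positive cells and 10.64, 6.79 and 9.81 in negative cells. Fibroblast markers were at 5.93 to 6.59 in Hes5 positive and 7.65 to 9.70 in Hes5 negative cells, with Col3a1 and Lum detected on no Hes5 positive array. The 4 tested GABA neuron markers all had higher means in Hes5 positive cells, with a median sort effect of 1.80 and array means of 9.08, 7.75 and 10.18 in positive and 7.25, 6.50 and 7.98 in negative cells. The 4 tested oligodendrocyte and astrocyte markers were all higher too (median 0.88), with array means of 10.31, 9.88 and 8.53 in positive and 8.04, 9.30 and 7.98 in negative cells. None of these 8 passed. The 7 tested progenitor markers, Hes5 itself among them, were higher in Hes5 positive cells (median 0.53) and did not pass either. Of the 8 tested postmitotic neuron markers, 7 had higher means in Hes5 positive cells (median 0.435), and none passed. Their array means were 9.97, 9.99 and 9.07 in positive and 8.67, 10.31 and 8.77 in negative cells. In the Pitx3 sort 7 of these 8 were higher (median 0.89), and 1 passed in the paired fit. In the Nurr1 sort all 8 dopamine markers, Nr4a2 among them, and 8 tested postmitotic neuron markers had higher means (medians 2.05 and 1.31). All tested progenitor, cycling, serotonin, GABA, pluripotent and fibroblast markers had lower means there (medians -1.03, -1.22, -1.70, -1.65, -1.80 and -1.08). In the paired fit 3 dopamine markers passed in that sort and none of the others. The part these other cells play in the guidance gene results was not tested.

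Of the netrin family, 6 of 9 members were tested: the ligands Ntn1, Ntn3 and Ntn4 and the receptors Dcc, Unc5b and Unc5c. None passed in any of the 9 comparisons in either fit. Dcc, the receptor that mediates attraction to netrin, was at 6.59, 6.73 and 6.54 in Hes5 positive and 5.67, 6.15 and 5.56 in Hes5 negative cells (replicates 1 to 3). It was at 7.35, 6.82 and 7.17 in Nurr1 positive and 6.16, 6.31 and 7.02 in Nurr1 negative cells, and at 6.03, 8.06 and 7.50 in Pitx3 positive and 5.94, 6.75 and 6.84 in Pitx3 negative cells. Positive cells were higher in every one of these 9 pairs. The fractions did not overlap in the Hes5 line, and they overlapped in the other lines. Dcc was not detected on Hes5 negative replicates 1 and 3, so the Hes5 difference rests partly on values at background. The sort effects of Dcc were 0.83, 0.62 and 0.68 in the Hes5, Nurr1 and Pitx3 lines, with paired adjusted p of 0.109, 0.17 and 0.091 (limma, paired SE 0.25).

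Ntn1, the secreted ligand that draws commissural axons to the midline, had sort effects of -0.28, -0.78 and -0.41 in the Hes5, Nurr1 and Pitx3 lines. It was detected on none of the 3 Pitx3 positive arrays and on all 3 Pitx3 negative ones, which makes it at least 1.12-fold lower in Pitx3 positive cells. This bound sets the brighter group's mean against the dimmest detected signal of each array or the probe's own, whichever is higher. Its lowest paired adjusted p was 0.0633, in the Nurr1 sort. Unc5b and Unc5c, receptors that turn netrin into a repellent, had sort effects of -0.15 and -0.07 in the Hes5 sort, with pairs on both sides of 0. The effects were 0.17 and 0.87 in the Nurr1 sort and 0.61 and -0.17 in the Pitx3 sort.

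Of the Slit family, 5 of 7 members were tested. In the Pitx3 sort all 3 Robo receptors were higher in positive cells in every pair, and both tested Slits were lower in every pair. Of these 5 only Robo1 passed. Such agreement was common in that sort, where 17 of the 48 tested members were higher and 13 lower in all 3 pairs. The share over all rows was not counted. In Pitx3 pairs 1 and 2 Robo3 was below the dimmest detected signal in both fractions, so these differences lie at background. Also below it were Robo2 on Pitx3 negative replicate 1, Slit3 on Pitx3 positive replicate 2 and Slit1 on Pitx3 positive replicate 3. Robo1, a receptor for Slits, was at 10.27, 11.43 and 11.24 in Pitx3 positive cells and 9.36, 9.87 and 10.06 in Pitx3 negative cells. Every positive array was above every negative one. Robo1 rose in the Pitx3 sort by 1.22 on the log2 scale (2.32-fold, paired SE 0.21, adjusted p = 0.0141 in the paired fit and 0.084 without pairs, limma). Its sort effect was 1.02 in the Nurr1 sort and 0.84 in the Hes5 sort, with paired adjusted p of 0.0642 and 0.0789. The fractions did not overlap in those lines either: 10.95, 10.63 and 10.69 in Nurr1 positive against 9.81, 9.34 and 10.08 in Nurr1 negative cells, and 10.78, 10.08 and 10.22 in Hes5 positive against 9.36, 9.55 and 9.63 in Hes5 negative cells.

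These values come from the brighter of the Robo1 probes. A second probe, detected on 17 of 18 arrays, had sort effects of -0.19, 0.09 and 0.14 in the Hes5, Nurr1 and Pitx3 lines. The Robo1 difference therefore rests on which probe is read. The mean of both probes passed in the Pitx3 sort, at 0.68 and a paired adjusted p of 0.0194 (limma). This mean contains the brighter probe, so it is no separate check, and the second probe was not tested alone. Without Pitx3 pair 2 or Pitx3 pair 3 Robo1 no longer passed on the brighter probe (paired adjusted p of 0.109 and 0.11).

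Robo2, a second Slit receptor, had its largest difference in the Nurr1 sort, where it was at 7.20, 7.66 and 6.84 in positive and 5.14, 5.10 and 6.34 in negative cells. The fractions did not overlap, but Robo2 was detected on only 1 of the 3 negative arrays and the difference of 1.71 did not pass (paired SE 0.53, adjusted p = 0.11, limma). Its sort effect in the Pitx3 line was 0.79. In the Hes5 line it was 0.37, with pair differences of 2.01, -0.82 and -0.08, and -0.45 without pair 1. Robo3, which in mouse lowers the response of commissural axons to Slit before they cross the midline, was at 8.08, 5.58 and 6.17 in Hes5 positive cells and 5.92, 4.69 and 5.03 in Hes5 negative cells. The groups overlapped, and within each pair the positive array was higher. Robo3 rose in the Hes5 sort by 1.39 (paired SE 0.22, paired adjusted p = 0.0389, 0.622 without pairs, limma). It was detected on 2 of 3 Hes5 positive arrays and on no Hes5 negative array, so it was at least 1.74-fold higher in positive cells. Without Hes5 pair 2, the pair with the conflicting label, the difference was 1.64 with a paired adjusted p of 0.00909. It did not pass with no filter, with the 6 Hes5 arrays alone, or without Hes5 pair 1, Hes5 pair 3, any 1 Nurr1 pair, Pitx3 pair 2 or Pitx3 pair 3. In the Pitx3 and Nurr1 sorts Robo3 was at 0.42 and -0.12, and it was detected on no Nurr1 positive array.

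The stretch of 250 bases before the annotated start of Robo3 is shown because it is 1 of the 2 windows among the members that passed with a match to a searched motif. The letters are from RefSeq (GRCm38.p6, chr9:37433176-37433425, minus strand, written 5′ to 3′ in the direction of the gene). The capitals mark GGATTA, the reverse of TAATCC, the bicoid-type site that Pitx factors bind, which starts 113 bases before the gene's start.
Robo3: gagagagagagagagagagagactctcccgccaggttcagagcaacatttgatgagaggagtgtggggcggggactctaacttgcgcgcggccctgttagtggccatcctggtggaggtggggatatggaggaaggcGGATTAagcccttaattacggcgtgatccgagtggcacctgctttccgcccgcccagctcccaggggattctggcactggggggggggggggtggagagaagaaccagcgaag
The same motif, on either strand, lies in 6.252% of all 32851 windows of this length, and in 1 of 55 windows of the 41 members with an entry.

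The Slit ligands are secreted and repel Robo-bearing axons. Slit3 was at 7.30, 5.20 and 6.36 in Pitx3 positive cells and 7.59, 6.76 and 7.31 in Pitx3 negative cells. Each pair was lower in positive cells although the groups overlapped by a single array, and the difference of -0.93 did not pass (paired SE 0.28, adjusted p = 0.0551, limma). In the Nurr1 and Hes5 sorts Slit3 was at -0.49 and -0.21. Slit1 was at 0.36, -0.46 and -0.52 in the Hes5, Nurr1 and Pitx3 sorts. Slit2 could be read only from the authors' deposited table, which is not normalized between arrays. There it was at 9.90, 9.0 and 9.11 (log2 intensity) in Pitx3 positive and 10.37, 9.55 and 9.91 in Pitx3 negative cells, a difference of -0.60 with a paired adjusted p of 0.33. Its differences were -0.55 in the Nurr1 sort and -0.08 in the Hes5 sort.

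Semaphorins were the most numerous family, with 21 of 32 members tested: 15 ligands and 6 receptors. In the Hes5 sort 9 of 15 ligands had a higher mean in positive cells, in the Nurr1 sort 14 of 15 and in the Pitx3 sort 10 of 15, with median sort effects of 0.10, 0.44 and 0.18. In the Nurr1 sort 9 of them were higher in all 3 pairs, but none passed. Of the 48 tested members of every family, 18 were higher and 13 lower in all 3 Nurr1 pairs. In the paired fit 2 rose in the Pitx3 sort, Sema3f and Sema6c, and 1 rose in the Hes5 sort, Sema6a. None fell. Of all rows 6.29% rose and 8.85% fell in the Pitx3 sort in that fit. In the Hes5 sort 1.33% of all rows passed, and 0.674% rose.

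Sema3f, a secreted repellent that binds neuropilin 2, was at 10.34, 10.27 and 10.35 in Pitx3 positive cells and 9.68, 9.78 and 9.74 in Pitx3 negative cells. The arrays of each group lay close together, and the groups did not overlap. The rise of 0.59 (1.50-fold) passed in the paired fit (SE 0.13, adjusted p = 0.0212) and not without pairs (adjusted p = 0.403, limma). Its second probe was at 0.75. Sema6c, a transmembrane semaphorin, was at 7.14, 7.67 and 6.97 in Pitx3 positive cells and 6.04, 6.55 and 6.32 in Pitx3 negative cells, again without overlap. It rose by 0.95 (1.94-fold, paired SE 0.22, adjusted p = 0.0262 in the paired fit and 0.101 without pairs). Its sort effects of 0.78 and 0.61 in the Nurr1 and Hes5 lines did not pass. Both Sema3f and Sema6c failed to pass when any 1 of the 3 Pitx3 pairs was left out.

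Sema6a, a transmembrane ligand of A-type plexins, was at 9.24, 8.58 and 8.98 in Hes5 positive cells and 8.23, 7.96 and 8.20 in Hes5 negative cells. All positive arrays were above all negative ones. It rose in the Hes5 sort by 0.80 (1.74-fold, paired SE 0.15, paired adjusted p = 0.0477, 0.648 without pairs, limma), and its 3 other probes were at 0.31, 0.45 and 0.82. Without Hes5 pair 2 the rise was 0.89 with a paired adjusted p of 0.029. Without Hes5 pair 1, Hes5 pair 3, any 1 Nurr1 pair, Pitx3 pair 2 or Pitx3 pair 3 it did not pass, nor with no filter, the authors' deposited table, the mean of its probes or the 6 Hes5 arrays alone. Its sort effect was 0.44 in the Nurr1 line and -0.0007 in the Pitx3 line. Sema5b, another transmembrane semaphorin, showed a similar order of sort effects, with 0.79, 0.55 and -0.01 in the Hes5, Nurr1 and Pitx3 lines, and did not pass.

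Sema7a, which is anchored in the membrane by a lipid, and Plxnc1, its plexin receptor, were higher in positive cells in every pair of the Pitx3 and Nurr1 lines. Sema7a was at 6.78, 7.64 and 7.32 in Pitx3 positive and 6.05, 6.66 and 6.45 in Pitx3 negative cells, which did not overlap. Plxnc1 was at 6.89, 8.68 and 7.90 in Pitx3 positive and 5.70, 7.59 and 6.72 in Pitx3 negative cells, which did. Plxnc1 was at 7.12, 7.06 and 6.89 in Nurr1 positive and 6.40, 5.32 and 6.21 in Nurr1 negative cells, which did not overlap, although only 2 of these 3 negative arrays detected it. The sort effects of Sema7a were 0.72, 0.87 and 0.86 in the Hes5, Nurr1 and Pitx3 lines, and those of Plxnc1 were 0.31, 1.05 and 1.15. Sema7a was not detected on Nurr1 negative replicates 1 and 2 or on Hes5 negative replicates 1 and 3. Plxnc1 was not detected on replicate 1 of Hes5 negative or Pitx3 negative cells. In the Hes5 line the pairs did not go one way, with differences of 1.38, -0.32 and 1.09 for Sema7a and of 1.44, -0.63 and 0.12 for Plxnc1, and without pair 1 these sort effects were 0.39 and -0.26. The lowest paired adjusted p was 0.102 for Sema7a and 0.0525 for Plxnc1, both in the Pitx3 sort (limma). Sema3a, a secreted repellent, had sort effects of -0.09, 0.80 and -0.02 in the same order, and its 3 pairs in the Hes5 line went in opposite directions (1.96, -0.45 and -1.79). The neuropilin Nrp2, part of the Sema3f receptor, had sort effects of -0.18, -0.0002 and 0.12 on its brighter probe. A second Nrp2 probe, detected on 11 of 18 arrays, was at 0.02, 0.70 and 0.74.

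**Figure D2:**
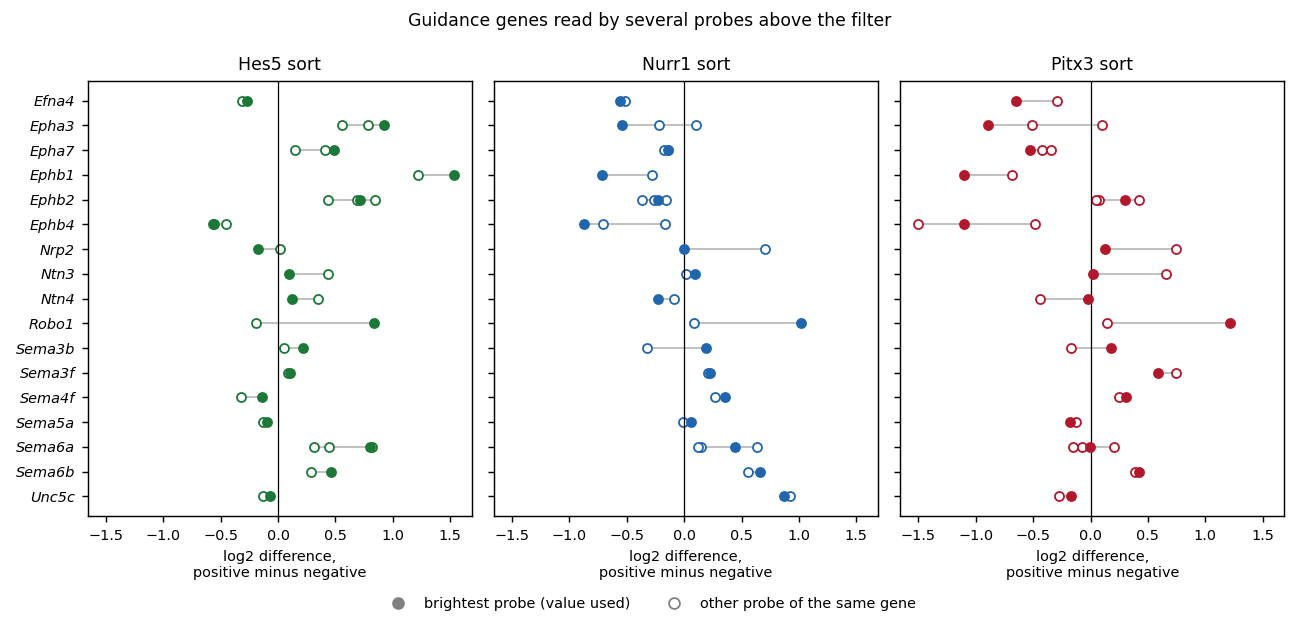
Sort effect (x axis, log2 difference of positive minus negative cells) of each probe of the 17 tested guidance genes read by several probes above the filter, in the Hes5, Nurr1 and Pitx3 lines. The filled point is the brightest probe, whose value is used, and open points are the others: for Robo1 they lie at 1.22 and 0.14 in the Pitx3 sort, for Sema3f at 0.59 and 0.75.

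The Eph and ephrin family had 15 of 21 members tested, 6 ligands and 9 receptors, and held 5 of the 8 members that passed in the Pitx3 sort. In that sort 1 rose, the receptor Epha5, and 4 fell, the receptors Epha3 and Ephb4 and the ligands Efna4 and Efnb1. All 5 calls were made in the paired fit only. Rows that rose made up 6.29% of all rows in that fit and rows that fell 8.85%. In the Nurr1 sort 12 of 15 had lower means in positive cells, and in the Hes5 sort 10 of 15 had higher means, with none past the threshold in either.

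Epha5, an ephrin-A receptor, was at 6.73, 8.75 and 7.84 in Pitx3 positive cells and 5.82, 6.49 and 6.24 in Pitx3 negative cells. The groups did not overlap, and replicate 1 was the lowest of the positive arrays. Epha5 rose by 1.59 (3.00-fold, paired SE 0.32, adjusted p = 0.019 in the paired fit and 0.103 without pairs, limma). Its sort effects of 0.86 and 0.49 in the Nurr1 and Hes5 lines did not pass, and it was detected on 1 of 3 negative arrays in each of those lines. Both Epha5 and Robo1 passed in the paired fit under all 6 other processing settings tried, and neither passed without Pitx3 pair 2 or Pitx3 pair 3.

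Epha3, another ephrin-A receptor, was at 7.41, 7.45 and 8.01 in Pitx3 positive cells and 7.80, 8.20 and 9.55 in Pitx3 negative cells. The groups overlapped by 1 array, and each pair was lower in positive cells. It fell by 0.89 (paired SE 0.22, adjusted p = 0.0318 in the paired fit and 0.328 without pairs, limma). Its other probes were at -0.51 and 0.10, and with the mean of all probes it did not pass. Ephb4, an ephrin-B2 receptor best known from veins, was at 9.02, 6.43 and 7.39 in Pitx3 positive cells and 9.59, 8.31 and 8.26 in Pitx3 negative cells. Replicate 1 was the highest of both fractions, and the groups overlapped. Ephb4 fell by 1.11 (paired SE 0.28, adjusted p = 0.0314 in the paired fit and 0.381 without pairs), and its other probes were at -0.48 and -1.51. Neither receptor passed without Pitx3 pair 2, Pitx3 pair 3 or Nurr1 pair 2. In the Nurr1 and Hes5 lines Epha3 had sort effects of -0.54 and 0.92 and Ephb4 of -0.87 and -0.56. None of these passed, and Ephb4 was lower in positive cells in every pair of both lines.

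The ligand Efnb1, a transmembrane ephrin, was at 8.83, 8.04 and 7.93 in Pitx3 positive cells and 9.22, 8.82 and 8.94 in Pitx3 negative cells. Efna4, a lipid-anchored ephrin, was at 7.92, 6.53 and 6.94 in Pitx3 positive cells and 8.38, 7.44 and 7.51 in Pitx3 negative cells. In both genes replicate 1 was the highest positive array and the only one to reach into the range of the negative arrays. Efnb1 fell by 0.73 (paired SE 0.15, paired adjusted p = 0.0188, 0.302 without pairs) and Efna4 fell by 0.65 (paired SE 0.15, paired adjusted p = 0.0274, 0.365 without pairs, limma). Without Pitx3 pair 2 or Pitx3 pair 3 neither passed. The second Efna4 probe was at -0.29 in the Pitx3 sort. Efna4 had sort effects of -0.56 and -0.27 in the Nurr1 and Hes5 lines, and neither passed. Efnb1 was at 8.60, 8.51 and 8.22 in Nurr1 positive and 9.03, 8.61 and 8.45 in Nurr1 negative cells. Its sort effect in the Hes5 line was 0.14, and it did not pass in either line. Other processing ended some of these calls in the paired fit: the authors' deposited table did so for Sema3f, Sema6c, Epha3, Efnb1 and Efna4, testing all rows without the filter for Sema6c, Epha3 and Ephb4, and the 6 Pitx3 arrays alone for Epha3, Ephb4, Efnb1 and Efna4.

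Ephb1, an ephrin-B receptor, differed between fractions in opposite directions in these lines. In the Hes5 line it was at 11.93, 10.18 and 10.45 in positive and 9.60, 9.74 and 8.60 in negative cells. It was at 8.55, 8.34 and 8.71 in Nurr1 positive and 9.36, 9.16 and 9.24 in Nurr1 negative cells, and at 9.04, 9.39 and 8.73 in Pitx3 positive and 9.53, 10.54 and 10.38 in Pitx3 negative cells. The fractions did not overlap in any line, with positive cells higher in the Hes5 line and lower in the Nurr1 and Pitx3 lines. The sort effects were 1.54, -0.72 and -1.10, with paired adjusted p of 0.059, 0.217 and 0.0528 (limma). Without Hes5 pair 2 the Hes5 sort effect of Ephb1 was 2.09 with a paired adjusted p of 0.00479. Epha2, an Eph receptor known from epithelia and stem cells, had lower means in positive cells of all lines (-1.05, -1.10 and -0.54 in the Hes5, Nurr1 and Pitx3 sorts), and none passed. Its Hes5 pairs differed by -2.84, 0.05 and -0.37. It was detected on no Nurr1 positive array and all 3 Nurr1 negative arrays, at least 1.46-fold lower in positive cells.

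**Figure D3:**
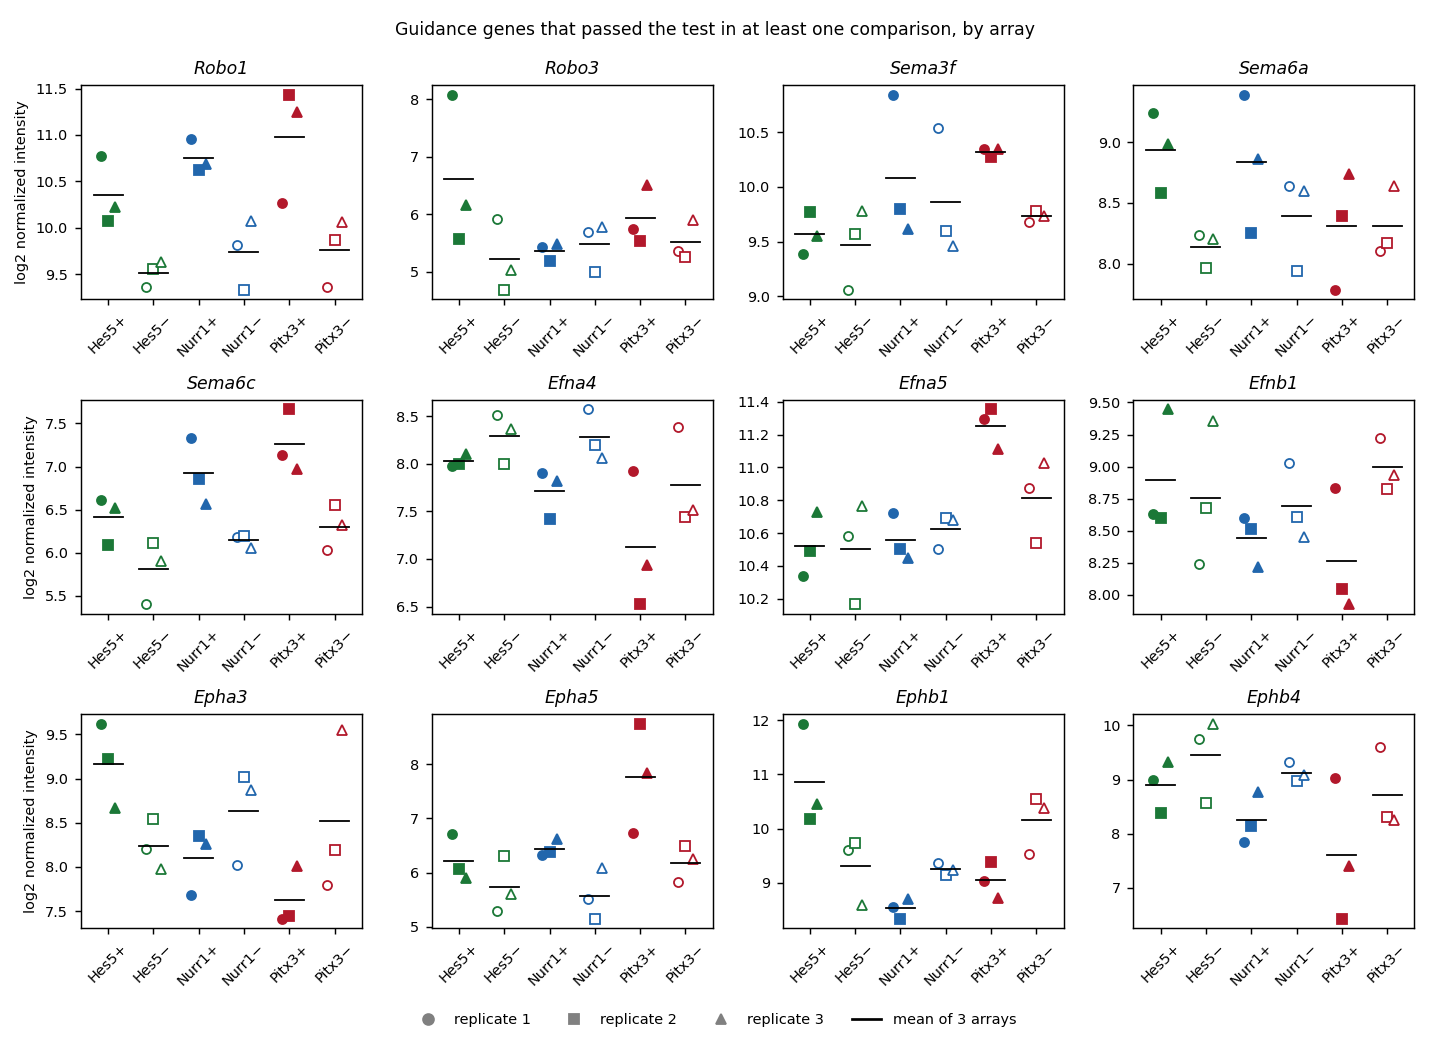
Normalized log2 intensity (y axis, a separate scale for each gene) of the 12 guidance genes that passed in at least 1 comparison, on each of the 18 arrays. Filled symbols are positive and open symbols negative fractions, shapes are replicate numbers and lines are means of 3 arrays: Sema3f shows tight groups in the Pitx3 line (10.27 to 10.35 against 9.68 to 9.78), and Ephb1 changes direction between the Pitx3 and Hes5 lines.

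The difference between sorts was tested directly. The Pitx3 sort effect minus the Hes5 sort effect passed for 2 members in the paired fit, against 3.31% of all rows, and for 0 without pairs, against 0.0296% (3 members and 7.89% of all rows at an unadjusted p under 0.05). Both were Eph receptors and both differences were below 0, as for 2.03% of all rows. Epha3 had a sort effect of -0.89 in the Pitx3 line and 0.92 in the Hes5 line, a difference of -1.82 (paired SE 0.32, paired adjusted p = 0.031, 0.303 without pairs, limma). In the Hes5 line Epha3 was at 9.62, 9.22 and 8.66 in positive and 8.21, 8.54 and 7.98 in negative cells, which did not overlap. Ephb1 differed by -2.64 (paired SE 0.46, paired adjusted p = 0.0312, 0.11 without pairs). The other probes of Epha3, detected on 12 and 8 of 18 arrays, had Hes5 sort effects of 0.78 and 0.55 and Pitx3 sort effects of -0.51 and 0.10. The second Ephb1 probe was detected on 3 of 18 arrays, which is the least the filter allows, and is not read. Tested without the filter, neither gene passed.

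Without Hes5 pair 2 the paired adjusted p was 0.0246 for Epha3 and 0.00741 for Ephb1. Neither passed without Hes5 pair 1, Hes5 pair 3, Nurr1 pair 2, Pitx3 pair 2 or Pitx3 pair 3. No member passed for the Nurr1 sort effect minus the Hes5 sort effect, where 0.00741% of all rows passed without pairs and 0.0% with them. There 3 members reached an unadjusted p under 0.05 without pairs and 6 with them (4.01% and 15.2% of all rows), and Ephb1 had a difference of -2.26 (paired adjusted p = 0.0925). None passed for the Pitx3 minus the Nurr1 sort effect (0.0% of all rows in both fits, with 0 and 2 members at an unadjusted p under 0.05, against 0.437% and 3.73% of all rows).

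**Figure D4:**
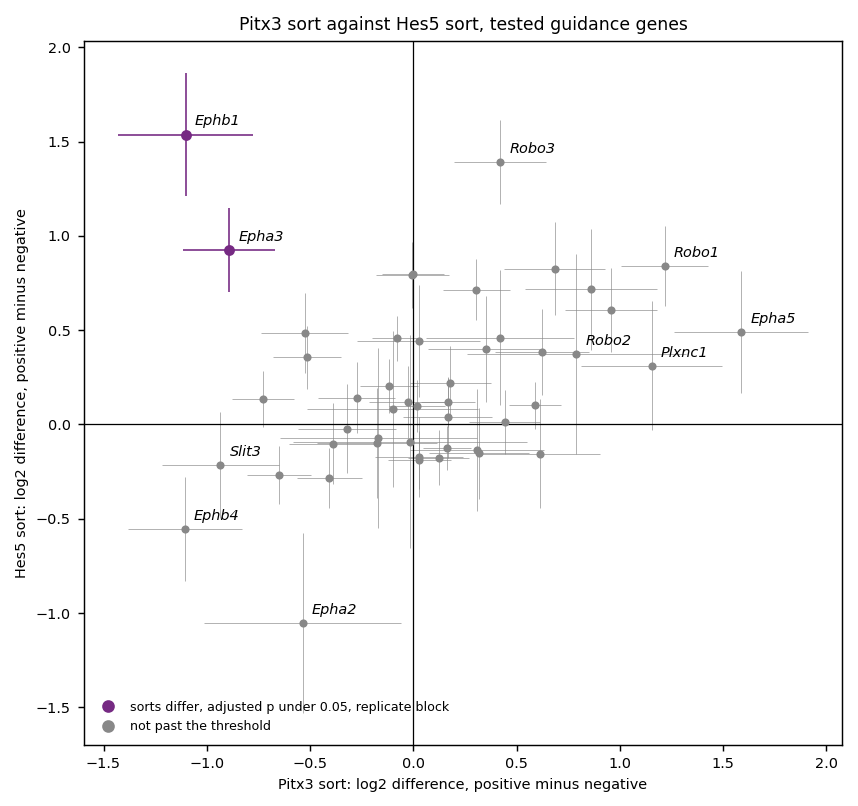
Sort effect in the Pitx3 line (x axis) against that in the Hes5 line (y axis), both as log2 difference of positive minus negative cells with standard errors of the paired fit, for the 48 tested guidance genes. Epha3 and Ephb1, in purple, are the 2 genes whose sort effects differed past the threshold, at -0.89 and 0.92 and at -1.10 and 1.54.

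The positive fractions of different lines were compared next. These comparisons are made without pairs, since same-numbered positive arrays of different lines did not vary together. They set lines against each other as well as reporters, and Pitx3 positive and Nurr1 positive cells are both set against the same Hes5 positive arrays. Pitx3 positive against Hes5 positive cells gave 4 members (8.33%), where 4.57% of all rows passed. Efna5 and Epha5 rose, as 2.13% of all rows did, and Epha3 and Ephb1 fell, as 2.45% did. Efna5, a lipid-anchored ligand of EphA receptors, was at 11.29, 11.35 and 11.11 in Pitx3 positive and 10.34, 10.49 and 10.73 in Hes5 positive cells. The groups did not overlap and the rise was 0.73 (SE 0.18, adjusted p = 0.0362, limma). Its sort effect within the Pitx3 line was 0.44, also without overlap (10.88, 10.54 and 11.03 in Pitx3 negative cells), and did not pass.

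Epha5 was at 6.73, 8.75 and 7.84 in Pitx3 positive and 6.71, 6.07 and 5.89 in Hes5 positive cells, a rise of 1.55 (SE 0.42, adjusted p = 0.0498). The lowest Pitx3 positive array, replicate 1, lay just above the highest Hes5 positive array. Epha3 fell by 1.54 (SE 0.41, adjusted p = 0.045) and Ephb1 fell by 1.80 (SE 0.41, adjusted p = 0.0252, limma), both without overlap between the groups. With no filter Epha5, Epha3 and Ephb1 did not pass, with the authors' deposited table Epha5 and Efna5 did not, and with the mean of its probes Epha3 did not (-1.06). With 1 of the 18 arrays left out, Epha5 passed in 3 cases (without Hes5 negative replicate 1, Hes5 negative replicate 2 or Pitx3 positive replicate 1). Epha3 passed in 6, each a case without replicate 1 of Hes5 negative, Nurr1 positive, Nurr1 negative or Pitx3 negative cells, Hes5 negative replicate 2 or Pitx3 negative replicate 3. Efna5 passed in 11 and Ephb1 in 14. Ephb1 was lost without the 4 arrays that brought the count to 0, and Efna5 without those, Hes5 positive replicate 2 or replicate 2 of either Nurr1 fraction.

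The count of members in this comparison ranged from 0 to 8 when single arrays were left out. It was 0 without Pitx3 positive replicate 2, Pitx3 positive replicate 3, Hes5 positive replicate 1 or Hes5 positive replicate 3, where 0.526%, 0.911%, 0.645% and 1.31% of all rows passed, and 8 without Pitx3 positive replicate 1, where 12.4% did.

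Nurr1 positive against Hes5 positive cells gave 1 member, Ephb1, where 0.393% of all rows passed and 0.304% fell. It was at 8.55, 8.34 and 8.71 in Nurr1 positive and 11.93, 10.18 and 10.45 in Hes5 positive cells, without overlap, and fell by 2.32 (SE 0.41, adjusted p = 0.0251, limma). It did not pass without Hes5 positive replicate 1, Hes5 positive replicate 3 or any 1 Nurr1 positive array. Pitx3 positive against Nurr1 positive cells gave 0 members, where 0.0148% of all rows passed and 4 members and 5.05% of all rows reached an unadjusted p under 0.05. Epha5 differed there by 1.34 and Efna5 by 0.70, both without overlap, with adjusted p of 0.933 and 0.929.

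The windows of 250 bases before the annotated starts of Epha3 and Ephb1 are shown because these are the genes with opposite sort effects, and that of Efna5 because it holds the other motif match among the members that passed. They are read from RefSeq (GRCm38.p6, minus strand in each case, 5′ to 3′ in the direction of the gene) at chr16:63864176-63864425, chr9:102354694-102354943 and chr17:62881318-62881567. The capitals in Efna5 mark CACGCG, a site of the kind that Hes repressors bind, which starts 84 bases before the gene's start.
Epha3: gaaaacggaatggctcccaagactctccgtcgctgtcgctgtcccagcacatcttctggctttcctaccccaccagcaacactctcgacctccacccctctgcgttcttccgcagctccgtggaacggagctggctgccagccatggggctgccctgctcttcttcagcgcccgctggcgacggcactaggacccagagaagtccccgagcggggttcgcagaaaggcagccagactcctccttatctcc
Ephb1: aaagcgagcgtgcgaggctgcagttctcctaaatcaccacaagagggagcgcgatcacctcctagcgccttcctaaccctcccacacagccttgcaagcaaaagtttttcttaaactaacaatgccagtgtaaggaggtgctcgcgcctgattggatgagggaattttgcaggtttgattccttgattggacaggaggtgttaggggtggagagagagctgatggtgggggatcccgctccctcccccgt
Efna5: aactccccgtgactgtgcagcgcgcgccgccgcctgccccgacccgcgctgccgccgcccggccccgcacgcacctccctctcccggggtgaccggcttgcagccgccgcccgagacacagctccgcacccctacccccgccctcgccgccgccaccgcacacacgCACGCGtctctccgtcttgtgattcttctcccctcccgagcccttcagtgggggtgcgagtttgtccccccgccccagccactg
The GC content of these windows is 62.8%, 54% and 74.8%, against a median of 52.4% over all windows. CACGCG or its reverse CGCGTG lies in 7.616% of all windows and in 5 of the 55 windows of members. The other motifs searched were AAAGGTCA, the site of Nr4a receptors (reverse TGACCTTT), in 1.336% of all windows and 0 of 55, and the proneural E-box CATCTG (reverse CAGATG), in 14.444% of all windows and 1 of 55. Among the 11 windows of the members that passed, TAATCC or its reverse was found in Robo3 alone, CACGCG or its reverse in Efna5 alone, and the other motifs in none. Matches describe the letters of these windows and not binding.

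The other tested members did not pass in any comparison with all arrays. They are Efna1, Efnb2, Efnb3, Epha7, Ephb2, Ephb3, Ephb6, Nrp2, Ntn3, Ntn4, Plxna2, Plxnb1, Plxnb2, Plxnd1, Sema3b, Sema4a, Sema4b, Sema4d, Sema4f, Sema4g, Sema5a, Sema6b, Sema6d, Slit1 and Vasn. Their sort effects lay between -0.53 and 0.79, and their lowest paired adjusted p was 0.0654, for Ephb2 in the Hes5 sort. The 23 members below the filter were Efna2, Efna3, Epha1, Epha4, Epha6, Epha8, Plxna1, Plxna3, Plxna4, Plxnb3, Robo4, Sema3c, Sema3d, Sema3e, Sema3g, Sema4c, Unc50, Unc5a, Unc5cl, Unc5d, second rows for Plxna2 and Unc5c under older names (PLXN2 and UNC5H3), and a row named PLXN6-PENDING. Of these, 18 were detected on no array, which bounds them at the background of the array and does not show that the genes are silent.

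Other genes of axon guidance were taken from a list of 67: further adhesion receptors, the growth cone's signalling and cytoskeletal proteins, and morphogens that also guide axons. In the Pitx3 sort 7 of the 56 tested rose and 1 fell in the paired fit, with 37 of 56 higher in positive cells and a median sort effect of 0.31, against 0.01 for all rows. Of all rows 6.29% rose and 8.85% fell in that fit, so the share that passed is near the background of 15.1%. The 4 with the lowest adjusted p all rose. Vav2, a signalling protein that acts below Eph receptors, rose by 1.11 (paired SE 0.15, paired adjusted p = 0.00782) and Dscam, a netrin-binding adhesion receptor, rose by 1.76 (paired SE 0.27, paired adjusted p = 0.0121, limma). Cntn2, an axonal adhesion molecule, rose by 1.97 (paired SE 0.32, paired adjusted p = 0.0124, 0.0289 without pairs), and Limk2, a kinase that inactivates cofilin, rose by 0.78 (paired SE 0.15, paired adjusted p = 0.0171). The 1 gene that fell was Shh, a morphogen of the floor plate that also attracts commissural axons, by 1.92 (paired SE 0.37, paired adjusted p = 0.0178), named after its value was seen. In the Nurr1 sort, where 0.741% of all rows passed, 2 of 56 rose, Cntn2 by 1.97 (paired adjusted p = 0.0396) and Vav2 by 1.03 (paired adjusted p = 0.0367). In the Hes5 sort 0 of 56 passed in either fit (limma), against 0.0148% and 1.33% of all rows, with 8 at an unadjusted p under 0.05 without pairs and 19 with them (6.65% and 21.5% of all rows).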

How the data were processed

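RNA from 18 sorted samples was hybridised to Illumina mouse BeadArrays. For 45281 probes, the scanner values as deposited are a linear intensity averaged over beads, a detection p-value and a count of beads, per the file headers. GenomeStudio and Partek are named, without versions, in the submitters' processing notes. The authors' second deposited table holds log2 values for 31441 gene rows and no probe names. Each row was tied to the 1 to 5 probes whose intensity, or its mean, gives the deposited log2 value on all 18 arrays (within 8e-06, or 6e-05 for values from 10), which worked for 31346 rows (99.7%), none ambiguously, with 0 matches for shuffled rows. Among the 72 members, 68 matched a RefSeq symbol, 3 a synonym and 1 neither. The 18 deposited columns of bead spread were not used.

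Intensities were corrected and normalized with neqc (limma 3.58.1, R 4.3.3, offset 16). Probes with a detection p-value under 0.01 on at least 3 arrays were kept, 18737 in all, and a gene was read from its brightest kept probe. Means of the 6 groups were fitted with lmFit and eBayes to 13496 rows on 18 arrays (two-sided, 12 residual degrees of freedom), and again with each line's replicate numbers as a block (6 residual degrees of freedom). The labels number the replicates without saying what a number shares. Deviations from group means correlated at 0.43 to 0.77 between fractions of the same number in all 9 pairs, and at -0.64 to 0.17 between different numbers. Between positive fractions of different lines they correlated at -0.19 to 0.10 for the same number (9 pairs) and at -0.23 to 0.30 for different numbers, so no block was set across lines. Precision is limited by having 3 arrays in each group.

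Values were given for Dcc and Robo1, for members past the threshold, and for the 3 largest sort effects of each family and line. The members, lists and tests were chosen with earlier results of these data known. Alternatives changed the filter, background correction, table, probe rule, arrays fitted and replicates. Motifs were sought in RefSeq promoter windows. Python 3.11.15, numpy 2.4.6, pandas 2.3.3, numba 0.67.0 and matplotlib 3.10.9 served for tables and plots.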

Additional observations from a re-analysis of the deposited data

Results flagged for a closer look

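The sort effects of 2 Eph receptors differed between the Pitx3 and Hes5 lines in the paired fit, by a test of the difference itself. Epha3 differed by -1.82 and Ephb1 by -2.64 on the log2 scale, Pitx3 sort effect minus Hes5 sort effect. All 3 Pitx3 pairs were lower and all 3 Hes5 pairs higher in positive cells for both genes. Neither difference passed in the fit without pairs or, in the paired fit, when all rows were tested without the filter. Neither passed without Hes5 pair 1, Hes5 pair 3, Nurr1 pair 2, Pitx3 pair 2 or Pitx3 pair 3. The Epha3 probe detected on 8 of 18 arrays had a Pitx3 sort effect of 0.10.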

How the results depend on the processing

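The counts of guidance genes that passed depended on the fit. Without pairs the counts were 0 in each sort and each difference of sorts. With the replicate block they were 2 in the Hes5 sort, 8 in the Pitx3 sort and 2 for the Pitx3 minus the Hes5 sort effect, while the block changed no other count. Within the block fit, testing all rows without the filter gave 0, 5 and 0 for these 3 counts (0.166%, 3.87% and 0.233% of all rows). The stricter filter, the mean of a gene's probes and the Hes5 arrays alone gave 1, 1 and 0 in the Hes5 sort (1.22%, 1.31% and 0.0% of all rows). The authors' deposited table, whose median over all rows shifts by -0.12 between Pitx3 and Nurr1 positive cells, gave 4 in the Pitx3 sort and 1 for the Nurr1 minus the Hes5 sort effect, with the block (3.59% and 0.293% of all rows). For Pitx3 against Hes5 positive cells no filter gave 1 and the authors' values gave 2 (1.21% and 0.916% of all rows), and for Nurr1 against Hes5 positive cells both gave 0 (0.0606% and 0.0922%). When single replicates were left out (in parentheses, the share of all rows that passed), the block fit gave 0 to 9 in the Hes5 sort (9 without pair 2, 8.97%, and 0 without Hes5 pair 1 or 3, any Nurr1 pair, or Pitx3 pair 2 or 3) and 0 to 8 in the Nurr1 sort (8 without Hes5 pair 1, 8.81%, against 3 without Hes5 pair 2, 3.53%). It gave 0 to 14 in the Pitx3 sort (14 without Hes5 pair 1, 24.0%, and 0 without Pitx3 pair 2 or 3, 0.215% and 0.119%), 0 to 3 for the Pitx3 minus the Hes5 sort effect (3 without Hes5 pair 2, 5.19%, or Pitx3 pair 1, 5.27%, and 0 without Hes5 pair 1 or 3, Nurr1 pair 2, or Pitx3 pair 2 or 3), and 0 to 1 for the Nurr1 minus the Hes5 sort effect (1 without Hes5 pair 2, 0.704%). Without pairs the Pitx3 sort ranged from 0 to 6 (6 without Pitx3 positive replicate 1, 7.64%), Pitx3 against Hes5 positive cells from 0 to 8 (8 without Pitx3 positive replicate 1, 12.4%), and Nurr1 against Hes5 positive cells from 0 to 1. Apart from the stated fewer arrays or more rows, the cause was not tested. Over single genes and alternatives, 2721 values kept their call, 54 gained it, 116 lost it and 53 changed sign while not past the threshold in either, and no called value changed sign. Slide as a block was not run, since the files give no slide. A replicate block across lines, added after seeing the data, gave 6 members for Pitx3 against Hes5 positive cells (12% of all rows), 1 for Nurr1 against Hes5 positive cells (1.19%) and 0 for Pitx3 against Nurr1 positive cells (0.0148%), but same-numbered arrays of different lines did not vary together. Many members sit near background, where detection on few arrays limits what a difference can show.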
